A study of Mus musculus with 14 samples.

Results

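The claudin genes described here are Cldn1, Cldn3, Cldn4, Cldn5, Cldn6, Cldn7, Cldn9 and Cldn12, listed by symbol, 8 of the 37991 genes in the files of the main experiment. The Ensembl identifiers of those files were matched to mouse symbols, and each symbol had a single identifier. Another 24 claudin genes have an identifier in the same files. Claudins are small membrane proteins that span the plasma membrane several times and assemble into the strands of the tight junction, the seal between neighbouring epithelial cells. Different claudins make that seal tighter or let particular ions through, so the set of claudins that a cell expresses sets the character of its barrier. Most end in a short tail that binds scaffold proteins such as Tjp1, which tie the strands to actin. The early embryo is epithelial from the blastocyst onward, and embryonic stem cells, which derive from it, keep several epithelial traits such as E-cadherin.

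The cells were C57BL/6 mouse embryonic stem cells carrying reporters of both microRNA clusters, mCherry for mir-290 and eGFP for mir-302, in every group. In the main experiment they were plated sparsely, kept for 5 days in 1 of 5 media and lysed for RNeasy extraction, and each medium has 2 libraries. FBS/LIF holds serum and leukemia inhibitory factor. VitC/LIF adds vitamin C at 500 µM, 2i/LIF adds the inhibitor pair known to hold cells in the naive ground state, and L-Pro/LIF contains L-proline, whose dose the labels of these samples do not state. F/A is serum-free N2B27 to which 20 ng/ml of activin A and 12 ng/ml of bFGF were added, in which cells take on features of the later, primed epiblast. A second experiment holds 4 single Trizol libraries of cells described as positive for both reporters: day 0 cells in serum, LIF and 100 µM vitamin C, cells after 5 days with 1 mM L-proline in serum and LIF, and cells after 3 and 5 days in N2B27 containing bFGF and 20 ng/ml of activin A. Separate cultures for the 2 libraries are not named in the labels, so p-values measure the spread between libraries, which may be technical, and whether the reporter line is a single clone is not named either.

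Mapped fragments per library lay between 17778399 and 26354444, except for F/A replicate 1 with 6937945, and the second experiment had 33162689 to 39711061 counts per library. The effective lengths of genes in the replicate 2 libraries of all 5 media were 39.4 to 54.1 bases above those of FBS/LIF replicate 1 (median over genes), against -1 to 7 in the other replicate 1 libraries, so differences are also given within each replicate number. The stem cell markers Pou5f1, Sox2, Nanog, Lin28a, Dppa5a and Utf1 had counts in all 10 libraries, and their summed level ran from 5080 to 5440 FPKM in 2i/LIF through 1410 to 1620 in L-Pro/LIF down to 761 to 874 in F/A. Dppa5a was the largest part in 2i/LIF, at 4010 and 3780 FPKM, against 660 and 543 in L-Pro/LIF and 5.74 and 9.0 in F/A. Lin28a (40.9 and 36.6 against 233 and 249) and Utf1 (13.3 and 16.1 against 35.8 and 24.2) were higher in F/A than in 2i/LIF, so the sum does not stand for every marker. Levels are in FPKM, fragments scaled to effective length and to the mapped total of the library, the only scale here on which different genes may be set beside each other. Changes are log2 fold changes of TMM-scaled counts with their standard errors (SE), tested by edgeR's quasi-likelihood F test over 16033 genes, and a gene is called at a Benjamini-Hochberg adjusted p under 0.05. In these bulk samples, fewer cells of a type and less RNA per cell cannot be told apart.

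All 8 claudins had their highest mean level in L-Pro/LIF. Of the 8, 7 had their lowest mean in 2i/LIF, and Cldn5 had its lowest in F/A. The same media were highest and lowest on CPM and on fragments that hit only the gene. By mean level outside 2i/LIF, Cldn4 and Cldn6 were the most abundant, Cldn7 and Cldn12 came next, and Cldn3, Cldn5, Cldn9 and Cldn1 were low. In 2i/LIF Cldn4 (34.7 FPKM) led and Cldn12 (10.6) came next, while Cldn6 (1.95) and Cldn7 (0.996) were low too.

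**Figure D1:**
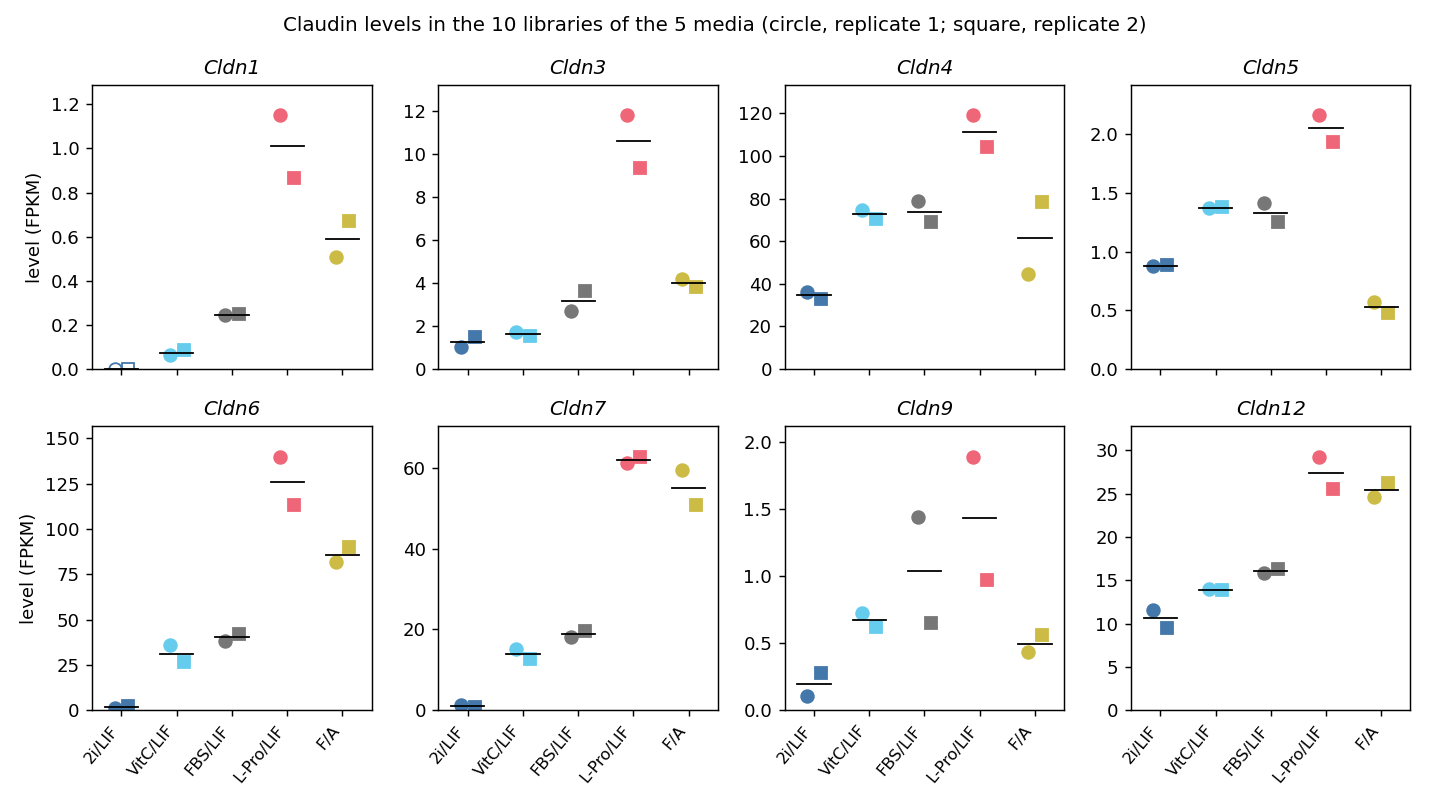
Level of each claudin in FPKM (linear axis from 0, scaled separately for each gene) in the 2 libraries of each of the 5 media; circles are replicate 1, squares replicate 2, black lines the means, and open symbols libraries with 0 counts. All 8 means are highest in L-Pro/LIF, and 7 are lowest in 2i/LIF, the exception being Cldn5, which is lowest in F/A.

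Cldn6 (ENSMUSG00000023906) and Cldn7 (ENSMUSG00000018569) were the members with the widest range among those above 1 FPKM in most media. Cldn6 is known as a claudin of embryonic epithelia and pluripotent cells, and Cldn7 as a claudin of many epithelia that binds the adhesion protein EpCAM. Cldn6 was at 1.43 and 2.47 FPKM in the 2 libraries of 2i/LIF, 35.8 and 26.5 in VitC/LIF, 38.3 and 42.0 in FBS/LIF, 81.8 and 90.0 in F/A, and 140.0 and 113 in L-Pro/LIF. No neighbouring media overlapped in this order. Cldn7 kept the same order, with 1.31 and 0.679 FPKM in 2i/LIF, 15.2 and 12.6 in VitC/LIF, 18.2 and 19.6 in FBS/LIF, 59.4 and 50.8 in F/A, and 61.1 and 62.8 in L-Pro/LIF. Its neighbours in the order did not overlap either, but the gap between F/A and L-Pro/LIF was small. The genes lie on different chromosomes, 17 for Cldn6 and 11 for Cldn7. Their promoters are shown because these members move most and together. They come from RefSeq (GRCm38.p6), as the 250 bases before the first annotated start of Cldn7 and an upstream stretch of 134 bases for Cldn6, and capitals mark matches to the motifs described below.
Cldn6, chr17:23679115-23679248, plus strand: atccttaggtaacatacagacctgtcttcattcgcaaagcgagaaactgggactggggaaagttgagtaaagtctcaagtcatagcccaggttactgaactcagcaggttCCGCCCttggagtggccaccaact
Cldn7, chr11:69964529-69964778, plus strand: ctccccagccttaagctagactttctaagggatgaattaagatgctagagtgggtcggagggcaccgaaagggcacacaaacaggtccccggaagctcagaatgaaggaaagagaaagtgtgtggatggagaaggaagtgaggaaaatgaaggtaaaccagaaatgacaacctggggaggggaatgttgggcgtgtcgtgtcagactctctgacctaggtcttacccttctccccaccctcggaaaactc

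Cldn4 (ENSMUSG00000047501) and Cldn3 (ENSMUSG00000070473), both bound by the enterotoxin of Clostridium perfringens, are neighbours on chromosome 5. Both were highest in L-Pro/LIF and lowest in 2i/LIF, and they differed in the place of F/A. Cldn4 was at 36.2 and 33.1 FPKM in 2i/LIF, 44.7 and 78.5 in F/A, 74.5 and 70.6 in VitC/LIF, 78.9 and 68.9 in FBS/LIF, and 119 and 104 in L-Pro/LIF. The F/A libraries stood far apart, so that F/A overlapped both VitC/LIF and FBS/LIF, and VitC/LIF overlapped FBS/LIF. L-Pro/LIF lay above and 2i/LIF below every other library. Cldn3 was at 1.02 and 1.5 FPKM in 2i/LIF, 1.74 and 1.53 in VitC/LIF, 2.68 and 3.64 in FBS/LIF, 4.20 and 3.82 in F/A, and 11.8 and 9.34 in L-Pro/LIF. Its media did not overlap in FPKM, and L-Pro/LIF stood apart from the other 4. In CPM, however, F/A (3.68 and 3.75) overlapped FBS/LIF (2.87 and 3.84), and VitC/LIF (1.82 and 1.68) met 2i/LIF (1.11 and 1.68). The 250 bases before each start are shown so that the neighbours can be compared.
Cldn4, chr5:134946935-134947184, minus strand: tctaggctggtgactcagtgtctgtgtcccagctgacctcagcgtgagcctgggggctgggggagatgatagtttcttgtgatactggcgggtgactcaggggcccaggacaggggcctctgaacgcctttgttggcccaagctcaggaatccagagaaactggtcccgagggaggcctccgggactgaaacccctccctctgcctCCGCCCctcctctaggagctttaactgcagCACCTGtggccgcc
Cldn3, chr5:134985964-134986213, plus strand: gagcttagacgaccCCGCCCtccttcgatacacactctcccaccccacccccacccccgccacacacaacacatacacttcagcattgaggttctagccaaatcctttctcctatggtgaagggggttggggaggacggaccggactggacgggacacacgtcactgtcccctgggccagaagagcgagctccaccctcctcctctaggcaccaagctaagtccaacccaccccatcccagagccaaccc

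Cldn12 (ENSMUSG00000046798), also on chromosome 5 and an atypical claudin that lacks the scaffold-binding tail, had the narrowest range of the abundant members. It was at 11.6 and 9.53 FPKM in 2i/LIF, 14.0 and 13.9 in VitC/LIF, 15.8 and 16.3 in FBS/LIF, 24.6 and 26.2 in F/A, and 29.3 and 25.5 in L-Pro/LIF. Only F/A and L-Pro/LIF overlapped. Cldn1 (ENSMUSG00000022512, chromosome 16), a barrier claudin of the epidermis and other epithelia, was near the limit of these libraries. It had 0 counts in both 2i/LIF libraries, 4 and 5 in VitC/LIF, 17 and 17 in FBS/LIF, 11 and 38 in F/A, and 75 and 70 in L-Pro/LIF, which made 1.15 and 0.868 FPKM in L-Pro/LIF. Its media did not overlap in FPKM.

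Cldn5 (ENSMUSG00000041378, chromosome 16) is best known as the main claudin of the blood-brain barrier endothelium. Its level was 0.572 and 0.478 FPKM in F/A (5 and 11 counts), 0.874 and 0.887 in 2i/LIF, 1.41 and 1.25 in FBS/LIF, 1.37 and 1.38 in VitC/LIF, and 2.16 and 1.93 in L-Pro/LIF. FBS/LIF and VitC/LIF overlapped and no other neighbours did. The 6 endothelial markers summed to 23.3 to 28.0 FPKM in 2i/LIF and 19.8 to 21.4 in VitC/LIF (Cdh5 and Emcn without counts in both), 14.0 to 15.9 in FBS/LIF and 3.61 to 4.02 in L-Pro/LIF (Emcn without counts in both) and 1.88 to 2.56 in F/A (Tie1 without counts). Most of the sum outside L-Pro/LIF and F/A was Pecam1, at 12.2 and 10.9 FPKM in FBS/LIF and 1.51 and 1.41 in L-Pro/LIF, while Kdr went from 0.117 and 0.121 to 0.289 and 0.55. Cdh5 had 0 to 4 counts in every library. Their part in the Cldn5 levels was not tested. Cldn9 (ENSMUSG00000066720), a close relative of Cldn6 that lies next to it on chromosome 17, was at 0.107 and 0.280 FPKM in 2i/LIF (3 and 7 counts), 0.431 and 0.562 in F/A, 0.726 and 0.617 in VitC/LIF, 1.44 and 0.648 in FBS/LIF, and 1.89 and 0.973 in L-Pro/LIF. Its replicates disagreed in FBS/LIF and in L-Pro/LIF, and FBS/LIF overlapped both L-Pro/LIF and VitC/LIF. The Cldn5 promoter is shown because this member alone matched the motif of the grainyhead-like factors.
Cldn5, chr16:18776597-18776846, plus strand: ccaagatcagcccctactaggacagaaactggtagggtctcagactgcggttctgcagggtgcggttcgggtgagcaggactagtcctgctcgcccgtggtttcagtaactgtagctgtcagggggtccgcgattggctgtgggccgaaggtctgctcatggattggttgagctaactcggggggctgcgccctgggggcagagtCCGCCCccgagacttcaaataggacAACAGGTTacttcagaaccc

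The 250 bases before each annotated start were searched on both strands for 4 motifs: CAGGTG, an E-box that repressors of the Snail and ZEB families can bind, AACNGGTT of the grainyhead-like factors, GCCNNNGGC of the AP-2 factors, and GGGCGG of Sp1 and related factors. None of the motifs contains another, though matches can overlap in part. The RefSeq table held 10 start windows for 7 of the members, all but Cldn9. CAGGTG was found in 3 of the 10 windows (Cldn4, Cldn6 and the downstream start of Cldn7), against 17.2% of 32851 promoters. The Cldn4 match lies 14 bases before the start and reads CACCTG on the printed strand, while the Cldn6 match and those of Cldn7 lie outside the printed stretches. AACNGGTT was found in 1 window, that of Cldn5, where 1.79% of all promoters hold it. GCCNNNGGC was found in 2 windows, both of Cldn12, overlapping each other and with overlapping matches, against 13.7% of promoters. GGGCGG was found in 8 windows, covering all 7 genes, against 32.7% of promoters. A match describes letters only.

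The makeup of the claudin pool differed with the medium. The 8 members summed to 52.5 and 48.5 FPKM in 2i/LIF, 144 and 127 in VitC/LIF, 157 and 153 in FBS/LIF, 216 and 251 in F/A, and 366 and 319 in L-Pro/LIF. Cldn4 held 69.0% and 68.3% of that sum in 2i/LIF, where Cldn6 held 2.72% and 5.09%. In FBS/LIF the Cldn4 share was 50.2% and 45.1%, and in L-Pro/LIF 32.4% and 32.7%. Cldn6 led in both libraries of L-Pro/LIF and of F/A, and Cldn4 led in the other 6. The ratio of the Cldn6 level to the Cldn4 level was 0.0394 and 0.0745 in 2i/LIF, 0.486 and 0.610 in FBS/LIF, 1.18 and 1.08 in L-Pro/LIF, and 1.83 and 1.15 in F/A. In F/A replicate 1, the shallow library, Cldn7 also exceeded Cldn4.

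**Figure D2:**
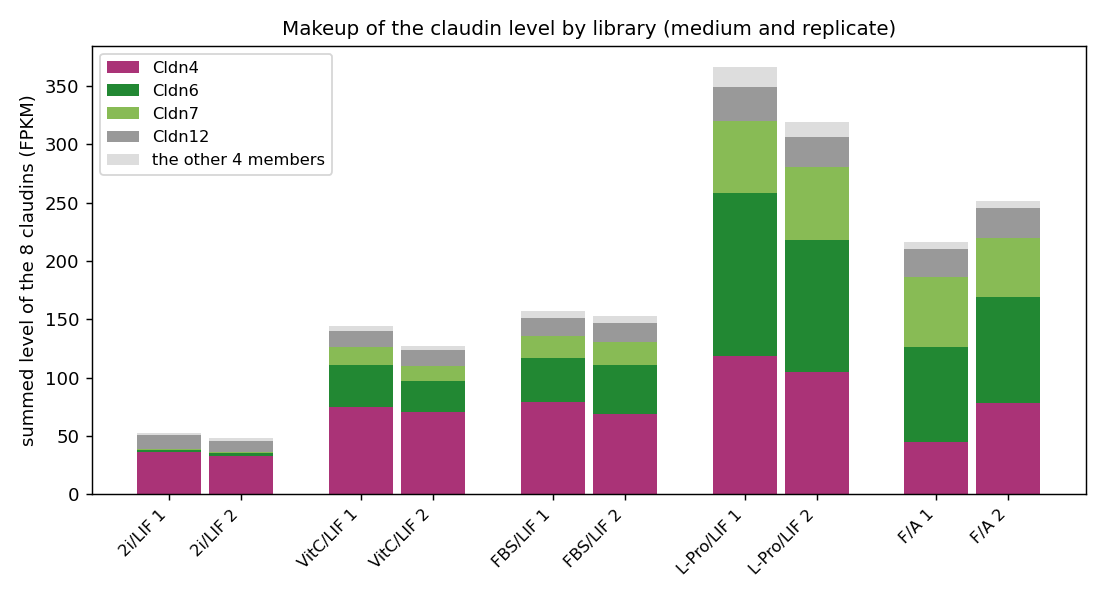
Summed level of the 8 claudins in FPKM for each library (medium and replicate), with the parts held by Cldn4, Cldn6, Cldn7, Cldn12 and the other 4 members stacked from 0. The bars rise from 52.5 and 48.5 FPKM in 2i/LIF, mostly Cldn4, to 366 and 319 in L-Pro/LIF, where Cldn6 is the largest part.

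In 2i/LIF against FBS/LIF, 7 of the 8 claudins fell and 0 rose, where 17.9% of all genes tested were called lower and 12.5% higher. Cldn6 and Cldn7 were nearly silenced, Cldn1 was without counts, and Cldn9, Cldn3, Cldn4 and Cldn12 fell by smaller amounts. Cldn5 had a lower mean and was not called. Cldn6 was 20.1-fold lower (log2 fold change -4.33, SE 0.27, adjusted p = 1.4e-05) and Cldn7 18.7-fold lower (-4.22, SE 0.24, adjusted p = 8.02e-06). Within replicate 1 and replicate 2 the differences were -4.66 and -4.00 for Cldn6 and -3.69 and -4.67 for Cldn7, so both numbers show losses of the same order, while for Cldn9 they were -2.88 and -0.87. Cldn1 was at least 9.68-fold lower, taking 3 counts over both 2i/LIF libraries as the limit (adjusted p = 0.000589). The others had log2 fold changes of -2.22 (SE 0.62) for Cldn9, -1.26 (SE 0.28) for Cldn3, -1.06 (SE 0.24) for Cldn4 and -0.64 (SE 0.11) for Cldn12, with adjusted p of 0.0252, 0.00886, 0.0117 and 0.00288. Cldn5 had -0.54 (SE 0.29, adjusted p = 0.208). The median over the 8 was -1.74, also with Cldn1 at its limit, and -0.045 over all genes. For the count of 0 higher, no member was higher at an unadjusted p under 0.05 either, with edgeR, DESeq2 or limma.

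The weaker calls of this comparison rested on single libraries: without 2i/LIF replicate 1 the count was 4, with Cldn3 (-0.99, adjusted p = 0.0714), Cldn4 (-1.11, 0.0657) and Cldn9 (-1.71, 0.163) no longer called. Cldn3 was also lost without FBS/LIF replicate 2 (-1.04, 0.0646), Cldn4 without FBS/LIF replicate 1 (-0.96, 0.0684) or 2i/LIF replicate 2 (-1.01, 0.0854), and Cldn9 without FBS/LIF replicate 1 (-1.52, 0.172), while without 2i/LIF replicate 2 Cldn9 moved to -2.98. Markers of other cell types also differed. The summed level of 8 primitive endoderm markers was 1.14 to 1.21 FPKM in 2i/LIF and 3.75 to 7.08 in FBS/LIF, with 3 of 8 called lower, none without counts in either medium. That of 7 trophoblast markers was 5.50 to 5.88 against 4.18 to 4.20, with 2 of the 6 tested called higher and 2 lower, and Hand1 had no counts in 2i/LIF. That of 8 fibroblast markers was 0.982 to 1.06 against 1.31 to 1.36, with 1 of the 6 tested called higher and 3 lower, and Col3a1, Lum and Fap had no counts in 2i/LIF. Their part in the claudin result was not tested.

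In L-Pro/LIF against FBS/LIF, the comparison for added L-proline, 5 of the 8 claudins were called higher and 0 lower, against 13.7% of all genes called higher and 10.3% lower. The rise was about the same size for Cldn3, Cldn6 and Cldn7, somewhat larger for the scarce Cldn1 and smaller for Cldn12. Cldn7 rose 3.19-fold (log2 fold change 1.67, SE 0.19, adjusted p = 0.000439), Cldn6 3.06-fold (1.61, SE 0.23, adjusted p = 0.00139) and Cldn3 3.17-fold (1.67, SE 0.26, adjusted p = 0.00225). Cldn1 rose by 1.96 (SE 0.37, adjusted p = 0.00756) and Cldn12 by 0.68 (SE 0.11, adjusted p = 0.00286) on the log2 scale. Both replicate numbers showed each rise, for example 1.68 and 1.66 for Cldn7 and 1.95 and 1.36 for Cldn3. The abundant Cldn4 had 0.56 (SE 0.24, adjusted p = 0.135), Cldn5 0.58 (SE 0.28, adjusted p = 0.175) and Cldn9 0.39 (SE 0.52, adjusted p = 0.642), and none of the 3 was called, although the libraries of these media did not overlap for Cldn4 and Cldn5. The median over the 8 was 1.14, against 0.011 over all genes. No member was lower at an unadjusted p under 0.05 with edgeR, DESeq2 or limma.

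The Cldn1 call was lost when L-Pro/LIF replicate 1 (1.78, adjusted p = 0.0638), FBS/LIF replicate 1 (1.95, 0.0619) or FBS/LIF replicate 2 (1.97, 0.0576) was left out, and the other 4 calls held without any single library of these media. The stem cell markers, 5 of 6 called lower, summed to 1410 to 1620 FPKM against 4520 to 5260. Dppa5a was the largest part of the FBS/LIF sum, at 3870 and 3220 FPKM against 660 and 543 in L-Pro/LIF. Lin28a went the other way, from 160 and 165 to 201 and 211 FPKM. Of the 8 fibroblast markers, 6 were tested and 5 were called higher in L-Pro/LIF, where their summed level was 4.90 to 5.41 FPKM against 1.31 to 1.36 in FBS/LIF (Lum and Fap without counts there). The trophoblast markers summed to 6.23 to 8.99 FPKM against 4.18 to 4.20, with 2 of the 6 tested called higher and 1 lower and none of the 7 without counts. Krt7, a keratin gene, was the largest part in L-Pro/LIF, at 3.03 and 5.39 FPKM against 0.925 and 0.901 in FBS/LIF. Cdx2 was also higher (1.3 and 1.72 against 0.646 and 0.503) and Ascl2 lower (1.21 and 0.966 against 1.95 and 2.25), so the sum does not stand for every marker. The primitive endoderm markers summed to 6.53 to 6.99 against 3.75 to 7.08, with none of 8 called in either direction by edgeR, limma or DESeq2 and, at an unadjusted p under 0.05, none by edgeR or limma and 1 lower by DESeq2. Whether cells of these types hold any of the added claudin RNA was not tested.

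Vitamin C in FBS/LIF called 0 of the 8 claudins, where 0.312% of genes were called lower and 0.362% higher. Levels of Cldn1, Cldn3, Cldn6, Cldn7 and Cldn12 were lower in VitC/LIF with no overlap between libraries. Cldn1 had a log2 fold change of -1.61 (SE 0.44, adjusted p = 0.185), Cldn3 -0.94 (SE 0.27, adjusted p = 0.194) and Cldn7 -0.45 (SE 0.19, adjusted p = 0.409). These 3 were the members with an unadjusted p under 0.05 in edgeR, and after adjustment DESeq2 and limma also called 0, with 3 and 2 lower at an unadjusted p under 0.05. No member was higher at that level in any of the 3. The remaining values were -0.36 for Cldn6, -0.23 for Cldn12, -0.62 for Cldn9, -0.02 for Cldn4 and 0.06 for Cldn5, and the median was -0.40 against -0.013 over all genes.

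Set directly against each other, L-Pro/LIF exceeded VitC/LIF for 5 of the 8 claudins and fell below it for 0, against 16.8% of genes called higher and 13.0% lower. Cldn1 was 11.9-fold higher (log2 fold change 3.57, SE 0.42, adjusted p = 0.000649) and Cldn3 6.07-fold higher (2.60, SE 0.27, adjusted p = 0.000209). Cldn7 was higher by 2.12 (SE 0.19), Cldn6 by 1.97 (SE 0.23) and Cldn12 by 0.91 (SE 0.11) on the log2 scale, with adjusted p of 9.42e-05, 0.000357 and 0.000452. All 5 calls held without any single library of these media. Cldn9 (1.01, SE 0.54, adjusted p = 0.205), Cldn4 (0.58, SE 0.24, adjusted p = 0.11) and Cldn5 (0.53, SE 0.28, adjusted p = 0.206) were not called. The median was 1.49, against 0.019 over all genes, and no member was lower at an unadjusted p under 0.05 with edgeR, DESeq2 or limma. The fibroblast markers summed to 4.9 to 5.41 FPKM in L-Pro/LIF against 1.83 to 1.93 in VitC/LIF (Fap without counts there), with 3 of the 6 tested called higher. The trophoblast markers summed to 6.23 to 8.99 against 3.03 to 3.33, with 2 of the 6 tested called higher, and the primitive endoderm markers to 6.53 to 6.99 against 2.21 to 4.5, with 0 of 8 called and 1 higher at an unadjusted p under 0.05 in each of edgeR, DESeq2 and limma. None of these markers was called lower, nor lower at that unadjusted level, by edgeR, DESeq2 or limma. Among the trophoblast markers, Krt7 was the largest part in L-Pro/LIF, at 3.03 and 5.39 FPKM against 0.85 and 1.11 in VitC/LIF. Cdx2 was also higher (1.3 and 1.72 against 0.172 and 0.451), while the Ascl2 level was lower (1.21 and 0.966 against 1.58 and 1.23). The stem cell markers, 4 of 6 called lower and 1 higher, summed to 1410 to 1620 against 3910 to 4690. Dppa5a was the largest part of the VitC/LIF sum, at 3440 and 2670 FPKM against 660 and 543 in L-Pro/LIF. Lin28a went the other way, from 136 and 138 to 201 and 211 FPKM. The part of these markers in the claudin result was not tested. This comparison shares the L-Pro/LIF libraries with the comparison against FBS/LIF.

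In F/A against FBS/LIF the claudins divided. Cldn7, Cldn6, Cldn12 and Cldn1 rose, Cldn5 fell, and Cldn3, Cldn4 and Cldn9 were not called. These 4 higher and 1 lower of 8 stand against 24.4% of all genes called higher and 22.0% lower. Cldn7 rose 2.55-fold (log2 fold change 1.35, SE 0.19, adjusted p = 0.000696), by 1.47 within replicate 1 and 1.22 within replicate 2. Cldn6 rose by 0.90 (SE 0.22, adjusted p = 0.0119), Cldn12 by 0.49 (SE 0.11, adjusted p = 0.00727) and Cldn1 by 1.08 (SE 0.38, adjusted p = 0.0491). Cldn5 was 2.78-fold lower (-1.47, SE 0.33, adjusted p = 0.00705), with -1.30 and -1.34 within the replicate numbers. Cldn4 had -0.45 (SE 0.24, adjusted p = 0.161), made of -1.08 within replicate 1 and 0.03 within replicate 2. Cldn9 had -1.12 (SE 0.59, adjusted p = 0.147) and Cldn3 0.15 (SE 0.27, adjusted p = 0.672). The median over the 8 was 0.32, against 0.045 over all genes.

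F/A replicate 2 mattered most here: without it the Cldn1 (0.72, adjusted p = 0.253), Cldn6 (0.66, 0.0667) and Cldn12 (0.28, 0.056) calls were lost and Cldn4 was called lower (-1.08, 0.000452), which leaves the shallow F/A library alone. Cldn1 was also lost without FBS/LIF replicate 1 (1.05, 0.184), FBS/LIF replicate 2 (1.07, 0.159) or F/A replicate 1 (1.25, 0.0561), with DESeq2 (1.07, 0.164), RLE factors (1.06, 0.0519), no low count filter (1.0, 0.136), the replicate number as a block (1.08, 0.0669) or only the 4 libraries compared (1.03, 0.13), and was called in 3 of 12 alternatives. Cldn6 was also lost without FBS/LIF replicate 1 (0.81, 0.0836) and Cldn12 without FBS/LIF replicate 2 (0.43, 0.061). In a fit of only the 4 libraries compared, Cldn7 (1.31, 0.00574) and Cldn6 (0.85, 0.0215) were called and Cldn5 was not (-1.51, 0.0564). On log2(FPKM + 0.1) the median of all genes lay at 0.204 and 66.3% of the called genes were higher, against 52.6% in edgeR, with the signs of the 8 claudins unchanged. The primitive endoderm markers, 5 of 8 called higher, summed to 28.3 to 40.6 FPKM in F/A against 3.75 to 7.08 in FBS/LIF, with none at 0. Foxa2 was the largest part in F/A, at 14.2 and 12.4 FPKM against 0.142 and 0.461 in FBS/LIF. Sox7 (0.171 and 0.0455 against 0.11 and 0.2) and Amn (0.949 and 0.901 against 0.445 and 1.13) overlapped between these media, so the sum does not stand for every member. The fibroblast markers summed to 4.49 to 5.86 against 1.31 to 1.36, with 5 of the 6 tested called higher and Fap without counts. The trophoblast markers summed to 5.02 to 6.82 against 4.18 to 4.20, with 2 of the 6 tested called higher and 2 lower and none without counts. The endothelial markers summed to 1.88 to 2.56 against 14.0 to 15.9, mostly Pecam1 in FBS/LIF, with Pecam1 and Tek called lower and Kdr higher of the 3 tested. The stem cell markers, 5 of 6 called lower and 1 higher, summed to 761 to 874 against 4520 to 5260. Dppa5a was the largest part of the FBS/LIF sum, at 3870 and 3220 FPKM against 5.74 and 9.0 in F/A. Lin28a went the other way, from 160 and 165 to 233 and 249 FPKM. The part of any of these markers in the claudin levels was not tested.

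**Figure D3:**
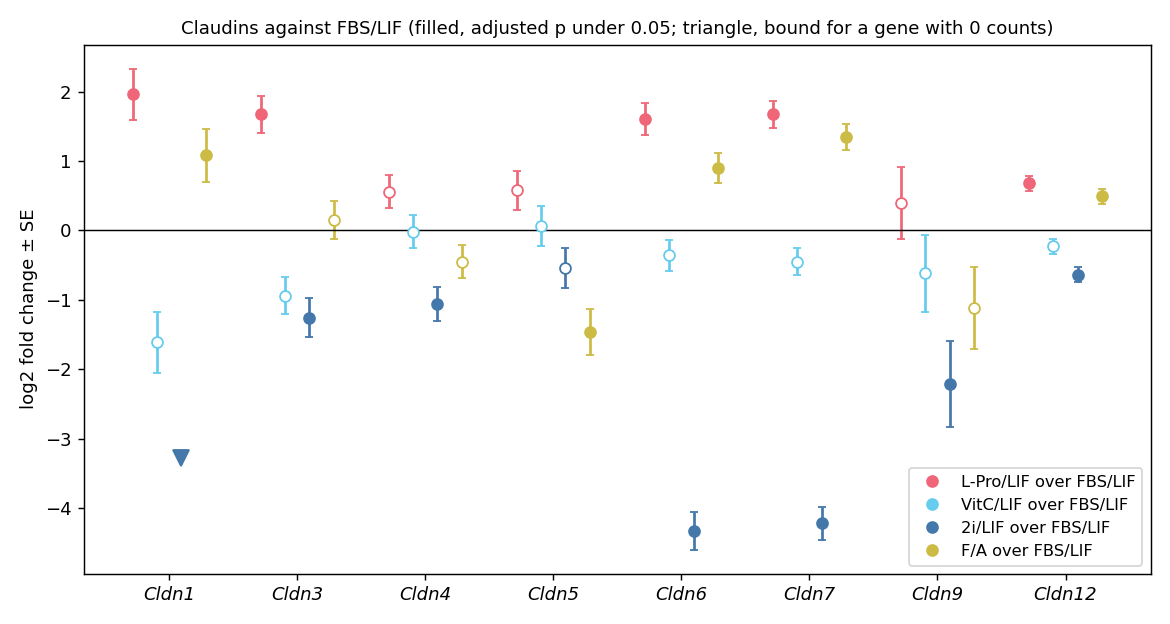
Log2 fold change ± SE of each claudin against FBS/LIF in L-Pro/LIF, VitC/LIF, 2i/LIF and F/A, from the 2 libraries per medium; filled circles passed an adjusted p of 0.05, and the triangle is the limit for Cldn1 in 2i/LIF, where it had 0 counts. Cldn6 and Cldn7 lie at -4.33 and -4.22 in 2i/LIF and at 1.61 and 1.67 in L-Pro/LIF, while Cldn5 is the called claudin that lies below 0 in F/A, at -1.47.

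F/A against L-Pro/LIF, the 2 media with the most claudin RNA, differed in 3 of the 8 claudins, all lower in F/A, against 10.9% of genes called lower and 11.1% higher. Cldn5 was 4.16-fold lower (log2 fold change -2.06, SE 0.32, adjusted p = 0.00485), Cldn3 2.86-fold lower (-1.52, SE 0.26, adjusted p = 0.00718) and Cldn4 2.00-fold lower (-1.0, SE 0.24, adjusted p = 0.0241). Cldn6 narrowly missed the threshold (-0.72, SE 0.22, adjusted p = 0.0504) and passed it in 5 of 12 alternatives: DESeq2 (-0.73, 0.00433), RLE factors (-0.73, 0.0457), no low count filter (-0.76, 0.0124), unique fragments (-0.74, 0.0223) and F/A replicate 2 left out (-0.95, 0.0311). Cldn7 (-0.32, SE 0.18, adjusted p = 0.22), Cldn12 (-0.18, SE 0.11, adjusted p = 0.25), Cldn1 (-0.88, SE 0.36, adjusted p = 0.11) and Cldn9 (-1.51, SE 0.58, adjusted p = 0.0922) were not called. The median was -0.94, against -0.032 over all genes. No member was higher at an unadjusted p under 0.05 with edgeR, DESeq2 or limma. On log2(FPKM + 0.1) 66.1% of the called genes were higher, against 50.6% in edgeR.

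Those calls too depended on single libraries. Without L-Pro/LIF replicate 1 the Cldn3 (-1.47, adjusted p = 0.0516) and Cldn4 (-1.0, 0.128) calls were lost, leaving 1, and Cldn4 was also lost without L-Pro/LIF replicate 2 (-1.05, 0.0795). Without F/A replicate 2 the count was 5, with Cldn4 at -1.64, Cldn6 (-0.95, 0.0311) and Cldn12 (-0.39, 0.0257), where the median of all genes was also lower, at -0.13. In a fit of only the 4 libraries compared, Cldn3 alone was called (-1.52, 0.0353), with Cldn5 at -2.06 (0.0526). The primitive endoderm markers, at 28.3 to 40.6 FPKM in F/A and 6.53 to 6.99 in L-Pro/LIF, were called higher for 5 of 8, with none without counts. Foxa2 was again the largest part in F/A, while Sox7 and Amn overlapped between these media. The endothelial markers, Pecam1 and Tek of the 3 tested called lower, summed to 1.88 to 2.56 against 3.61 to 4.02. The part of these markers was not tested.

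The other components of the tight junction shifted in the same media. The list holds 24 genes for scaffolds, polarity proteins and other membrane proteins of the junction, and all 24 were tested. In 2i/LIF against FBS/LIF 14 of them fell and 5 rose, with a median of -0.79, against 17.9% of all genes called lower and 12.5% higher. The scaffold gene Cgn (cingulin) fell from 16.6 and 18 to 1.32 and 1.66 FPKM (log2 fold change -3.57, SE 0.19, adjusted p = 6.8e-06). The polarity genes Crb3 (-3.32) and Patj (-2.86) also fell, and Ocln (occludin), a strand protein, fell by 0.98 on the log2 scale. Among those that rose were Ildr1 (3.03), a protein of the corners where 3 cells meet, and the adhesion molecules Jam3 (2.06) and Jam2 (1.95). The list therefore did not move as a whole in 2i/LIF.

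In L-Pro/LIF against FBS/LIF 16 of the 24 partners rose and 1 fell, with a median of 0.75, against 13.7% of all genes called higher and 10.3% lower. Marveld3 rose by 2.04 (SE 0.25), Mpdz by 2.03 (SE 0.45) and Patj by 1.79 (SE 0.18) on the log2 scale, and Ocln rose from 7.73 and 6.11 to 22.8 and 17.1 FPKM (1.32, SE 0.16, adjusted p = 0.00063). The gene that fell was Jam2, from 31.4 and 32.6 to 2.35 and 1.25 FPKM (-3.79, SE 0.12, adjusted p = 1.85e-06). In VitC/LIF against FBS/LIF none of the 24 was called by edgeR, DESeq2 or limma, with 1 higher and 1 lower at an unadjusted p under 0.05 in edgeR. In F/A against FBS/LIF 14 rose and 4 fell, with a median of 0.58, against 24.4% of all genes called higher and 22.0% lower. Mpdz (2.75), Cxadr (2.16) and Patj (2.08) rose most, and Jam2 (-5.29) and the scaffold gene Tjp3 (-1.68) fell most. F/A was above L-Pro/LIF for 4 and below it for 7, against 11.1% and 10.9% of all genes. The comparisons against FBS/LIF share its libraries.

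Genes that regulate or mark epithelia were also followed. Of 21 such genes 20 were tested, and in 2i/LIF against FBS/LIF 15 fell and 2 rose (median -2.20), against the 17.9% and 12.5% of all genes given above. The transcriptional repressor Ovol1 (-5.25) was among those that fell most, but it had 0 and 1 counts in 2i/LIF against 33 and 22 in FBS/LIF, so the size of its fall is imprecise. The splicing regulator Esrp1 fell from 16.4 and 19.1 to 0.0653 and 0.129 FPKM (-7.51, SE 0.29, adjusted p = 2.15e-06). Grhl2, a grainyhead-like factor known to activate junction genes in epithelia, fell from 17.8 and 18 to 0.466 and 0.729 FPKM (-4.92, SE 0.13, adjusted p = 1.27e-06). Epcam fell from 166 and 145 to 31.1 and 30.0 FPKM (-2.31, SE 0.15, adjusted p = 1.86e-05). Elf3 (2.05) and Spint1 (1.43) rose. In L-Pro/LIF against FBS/LIF 6 rose and 4 fell (13.7% and 10.3% of all genes), with the keratin genes Krt19 (2.27) and Krt8 (2.09) among those that rose and Tfap2c (-1.90) and Grhl3 (-1.84) leading those that fell. Grhl2 itself had -0.28 (SE 0.10, adjusted p = 0.0911) and Esrp1 0.17 (SE 0.19, adjusted p = 0.577) there, and neither was called. In the single libraries Grhl2 was 2.02-fold (95% counting interval 1.89 to 2.15) and Esrp1 3.41-fold (3.23 to 3.61) higher with L-proline than at day 0. Past 2-fold, 12 genes of this list were higher in that L-proline library and 2 lower, against 20.1% and 15.4% of all genes. The part of these genes in the claudin levels was not tested. In F/A against FBS/LIF 6 of the 20 rose and 7 fell, Krt19 (2.27) leading upward and Tfap2c (-3.43) downward, with Grhl2 among those that fell (-0.62, SE 0.11, adjusted p = 0.00196). Of all genes 24.4% were higher and 22.0% lower there, near the shares of this list. In F/A against L-Pro/LIF 8 fell and 0 rose (10.9% and 11.1% of all genes), and none was higher at an unadjusted p under 0.05 with edgeR, DESeq2 or limma.

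Of 7 mesenchymal regulators and markers, 6 rose and 0 fell in F/A against FBS/LIF, against 24.4% and 22.0% of all genes. Cdh2 (4.25), Zeb2 (4.17) and Vim (3.09) were among those that rose, while Snai2 had only 1 and 0 counts in FBS/LIF against 7 and 12 in F/A. No member of that list was lower there at an unadjusted p under 0.05 with edgeR, DESeq2 or limma. In L-Pro/LIF 4 rose and 1 fell (13.7% and 10.3% of all genes), and in 2i/LIF 2 rose and 1 fell (12.5% and 17.9%). The gene that fell in L-Pro/LIF and 1 of those that rose in 2i/LIF was Zeb1, but only 0.31% of its estimated fragments hit this gene alone, so its values (-3.78 and 2.20) are uncertain.

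Outside the 8, claudin RNA was scarce. Of the other 24 claudin genes 8 had no counts in any of the 10 libraries and 3 were tested. Their summed level was 0.804 to 1.66 FPKM in the 4 LIF media and 5.99 and 2.19 in F/A. Only Cldn34c1 reached 1 FPKM in a medium mean, 1.25 in F/A (1.97 and 0.536), and 65.2% of its estimated fragments were unique to it. Cldn19, a claudin of kidney and myelin, was higher in 2i/LIF than in FBS/LIF (0.369 and 0.227 against 0.0108 and 0.0475 FPKM, log2 fold change 3.28, SE 0.89, adjusted p = 0.0229), the opposite direction to the 7 members that fell there. Cldn15, a claudin of the intestine, was higher in F/A than in L-Pro/LIF at 0.448 and 0.448 against 0.114 and 0.114 FPKM, on 4 to 14 counts per library (1.78, SE 0.53, adjusted p = 0.0448), a call that DESeq2 and the fit with the replicate number as a block did not make.

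Across the 10 libraries the profiles of the members were compared by Pearson's r of log2(CPM + 1), as a description, since the libraries of a medium and the media themselves are shared by every gene. Cldn6 and Cldn7 were the most alike pair (r = 0.983), followed by Cldn1 with Cldn12 (0.977). Cldn5 with Cldn12 was the least alike (0.149), and Cldn5 with Cldn7 was at 0.184. Cldn4 was closest to Cldn9 (0.855). Among 10078 genes with a mean of at least 5 CPM, the genes most like Cldn7 were Stard13 (0.997), Srl (0.995) and Stk26 (0.995). Those most like Cldn6 were Sox4 (0.995), Kcnk1 (0.994) and Lrrfip1 (0.994), and for Cldn12 they were Maff (0.995), Arl4c (0.995) and H2-K1 (0.994). Cldn4 was matched by Ramp3 (0.989), Psmb10 (0.988) and Ptgis (0.982), Cldn3 by Kbtbd2 (0.980), Slc2a1 (0.980) and Slc6a15 (0.979), and Cldn1 by Plpp2 (0.988), Plod2 (0.986) and H2-Q4 (0.983). For Cldn5 the nearest were Trh (0.969), Meioc (0.964) and Ndrg2 (0.958), and for Cldn9 Mcts1 (0.911), Etfbkmt (0.908) and Sdhaf3 (0.906).

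In the 4 single libraries of cells positive for both reporters, most claudins were higher after either treatment than at day 0. These libraries have no replicates, so there is no test, and intervals (95%, exact) cover counting error only. Cldn6 stood at 27.3 CPM on day 0, 77.2 and 167 after 3 and 5 days in F/A, and 326 after 5 days with L-proline. Cldn7 followed at 6.93, 38.1, 63.4 and 111 CPM in the same order of libraries. Cldn6 was thus 12.0-fold (11.2 to 12.8) and Cldn7 16.1-fold (14.1 to 18.4) higher with L-proline than at day 0. Cldn12 was at 27.7, 60.6, 75.6 and 80.7 CPM, and Cldn3 at 0.978, 6.74, 8.78 and 7.54 CPM, from 33 counts at day 0 to 294 with L-proline. Cldn1 had 2 counts at day 0 and 60, 72 and 143 in the others, a ratio of 61.9 (16.8 to 516) with L-proline.

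Counting changes over 2-fold with at least 1 CPM in the higher library, the L-proline library exceeded day 0 for 6 claudins and fell below it for 0, out of the 6 that reached the minimum, against 20.1% of genes higher and 15.4% lower. F/A day 3 exceeded day 0 for 7 of 8 and was lower for 0 (17.3% and 13.5% of genes), and F/A day 5 for 6 of 6 with 0 lower (20.7% and 16.6%). Cldn1, Cldn3, Cldn5 and Cldn9 were under 1 CPM at day 0 (0.0593, 0.978, 0.474 and 0.444). They were therefore counted only where the later library reached the minimum. A fall of these members below day 0, such as that of Cldn5 at F/A day 5, could not be counted. Cldn4 was the exception at day 3. It was at 36.6 CPM on day 0, 25.6 at day 3 of F/A (0.699-fold, interval 0.641 to 0.762), 155 at day 5 (4.24-fold, 3.98 to 4.51) and 172 with L-proline (4.70-fold, 4.42 to 5.00). Cldn5 and Cldn9 peaked at day 3 of F/A instead. Cldn5 had 16, 105, 0 and 31 counts at day 0, F/A day 3, F/A day 5 and L-proline, which makes it 6.04-fold (3.55 to 11.0) above day 0 at day 3 and at least 5.25-fold below day 0 at day 5, taking 3 counts as the limit. Cldn9 had 15, 82, 19 and 32 counts in the same order, 5.04-fold (2.88 to 9.40) above day 0 at day 3.

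Between day 3 and day 5 of F/A, Cldn4 (6.06-fold, 5.65 to 6.50) and Cldn6 (2.16-fold, 2.07 to 2.26) were higher past 2-fold, and Cldn5 (at least 31.8-fold) and Cldn9 (3.92-fold) were lower, 2 and 2 of 8, where 9.85% of genes were higher and 9.79% lower. Cldn7 (1.66-fold) and Cldn12 (1.25-fold) were within that limit, and in the authors' normalized table Cldn6 lay just inside it too, at a log2 ratio of 0.98. The summed level of the primitive endoderm markers was 4.77 CPM at day 0, 14.9 and 60.4 at days 3 and 5 of F/A and 25.9 with L-proline, with all 8 detected in each library. The fibroblast markers summed to 25.6, 16.4, 13.9 and 52.4 CPM in that order, with 2, 1, 1 and 0 of the 8 without counts, and the trophoblast markers to 5.63, 8.41, 11.8 and 13.8 CPM, with 2, 0, 0 and 1 of the 7 without counts. The endothelial markers summed to 102 CPM at day 0 and to 14.3, 5.32 and 31.1 in the others, with 3, 2, 2 and 1 of the 6 without counts. Pecam1 alone made 97.0 CPM of the day 0 sum and 4.91, 0.241 and 3.18 CPM in the others. Kdr went the other way, with 0 counts at day 0 and 126, 105 and 381 in the others. Among the primitive endoderm markers, Foxa2 held 26.5 of the 60.4 CPM at F/A day 5 and Dab2 19.7 of the 25.9 with L-proline. Sox7 went from 1.01 CPM at day 0 to 0.181 at F/A day 5. The part of all these markers in the claudin values was not tested.

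**Figure D4:**
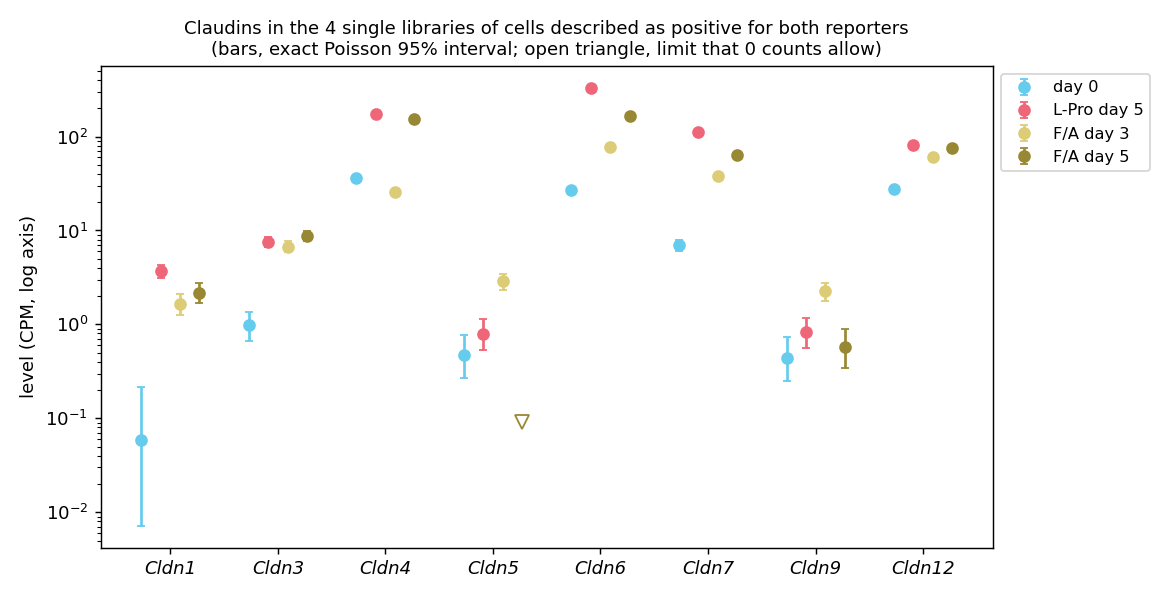
Level of each claudin in CPM (log axis) in the single libraries of day 0 cells, of cells after 5 days with L-proline and of cells after 3 and 5 days in F/A, with exact Poisson 95% intervals; the open triangle is the level that 3 counts would give for Cldn5 at F/A day 5, where it had 0 counts. Cldn6 rises from 27.3 CPM at day 0 to 326 with L-proline, and Cldn4 dips to 25.6 CPM at F/A day 3 before 155 at day 5.

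The experiments differ in cell population, RNA extraction, vitamin C dose and the kind of counts, and the L-proline dose of the main experiment is not stated. They also differ in the reference, VitC/LIF at day 5 in the replicated media and day 0 cells in the single libraries. Their values are therefore only set side by side. L-proline over VitC/LIF gave log2 ratios of 2.12 for Cldn7, 1.97 for Cldn6, 2.60 for Cldn3 and 0.58 for Cldn4 in the replicated media. In the single libraries L-proline at day 5 over day 0 gave 4.01, 3.58, 2.95 and 2.23. Cldn5 averaged 0.525 FPKM in F/A against 1.37 in VitC/LIF in the replicated media and had 0 counts at F/A day 5 against 16 at day 0 in the single libraries. Cldn4 was at 0.741 times the VitC/LIF mean in CPM in the replicated media and 4.24 times day 0 in the single libraries. The 2 F/A libraries behind the 0.741 disagreed, at 61.4 and 116 CPM, against 122 and 117 in VitC/LIF.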

How the data were processed

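RNA sequencing was analysed from 14 deposited libraries. For the main experiment the authors deposited gene-level tables that hold, per the file headers, the natural log of an FPKM value, an effective length and a count of fragments unique to the gene. For the second experiment the authors deposited raw counts per gene, and a table of normalized counts, treated as a score, which was used as an alternative. Per the submitters' processing notes CASAVA, TopHat2 2.0.13, HTSeq 0.6.1p1, Bowtie and DESeq were used with the mm9 (NCBIM37) build. Which tool made the main tables, and the strand setting, are not given in the sources used here. The table of normalized counts has 1 column whose header names 2 samples, and it was not used.

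Estimated counts were computed as FPKM times effective length times mapped fragments, rounded, and summed to 98.7% to 99.5% of the mapped fragments. Genes passing filterByExpr (16033) were TMM-scaled and tested with edgeR 4.0.16 (R 4.3.3, limma 3.58.1) in 1 model of all 10 libraries, 2-sided, with 5 residual degrees of freedom, and the scripts were tested on simulated data. SE was obtained from F, by dividing the size of the log2 fold change by its root. Single libraries were compared as ratios of TMM-scaled CPM with exact binomial intervals, and levels with exact Poisson intervals. A gene with 0 counts was given the limit of 3 counts. Symbols came from GENCODE vM21, which matched 32919 of 37991 and 32897 of 37620 identifiers, and promoters from RefSeq. Samples were grouped by their titles.

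Members and lists were chosen with earlier results of these data known. All 8 members are named whatever their values, other claudins where a medium mean reached 1 FPKM or where a call singled them out after values were seen, the 3 genes most like each member, and from each list up to 3 called genes of largest change in each direction plus those needed to read a result. Values of some listed genes are not reported here. The alternatives were DESeq2 1.42.0, RLE factors, no filter, unique fragments, limma on log2(FPKM + 0.1) and log2(FPKM + 1), the replicate number as a block, only the 4 libraries compared, leaving out each library, and, for single libraries, total count scaling, no minimum and the normalized table.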

Additional observations from a re-analysis of the deposited data

Results flagged for a closer look

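Cldn4 went in opposite directions at the 2 times of F/A in the single libraries: it was 0.699 times day 0 at day 3 and 4.24 times day 0 at day 5. Cldn5 did the reverse, at 6.04 times day 0 at day 3 and with 0 counts at day 5. The experiments also differed in Cldn4, though over unlike references. F/A was at 0.741 times VitC/LIF of the same day 5 in the replicated media, and F/A day 5 at 4.24 times day 0 in the single libraries. The F/A libraries behind the 0.741 disagreed, at 61.4 (the shallow replicate 1) and 116 CPM, against 122 and 117 in VitC/LIF. Neither the differences between times nor that between experiments was tested. Each time has a single library, and the experiments differ in cell population, extraction, vitamin C dose and the day of the reference.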

How the results depend on the processing

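The number of claudins called kept within 1.5 times of its value under DESeq2, RLE factors, no filter, unique fragments and both limma scales in all 6 comparisons. Fitting only the 4 libraries compared gave 2 in F/A over FBS/LIF (5 in the full model) and 1 in F/A over L-Pro/LIF (3 in the full model). Leaving out single libraries gave 4 to 5 in L-Pro/LIF over FBS/LIF, 0 each time in VitC/LIF over FBS/LIF, 4 to 6 in 2i/LIF over FBS/LIF (4 without 2i/LIF replicate 1), 3 to 4 in F/A over FBS/LIF, 5 each time in L-Pro/LIF over VitC/LIF and 1 to 5 in F/A over L-Pro/LIF. The calls of Cldn6, Cldn7, Cldn12 and Cldn1 in 2i/LIF, of Cldn3, Cldn6, Cldn7 and Cldn12 in L-Pro/LIF over FBS/LIF and of Cldn7 in F/A over FBS/LIF held under all 12 alternatives. Leaving out single libraries turned the sign of uncalled log2 fold changes. For L-Pro/LIF over FBS/LIF, Cldn9 ranged from -0.10 (L-Pro/LIF replicate 1 out) and -0.08 (FBS/LIF replicate 2 out) to 1.10. For VitC/LIF over FBS/LIF, Cldn4 ranged from -0.11 to 0.01 (VitC/LIF replicate 2 out) and 0.08 (FBS/LIF replicate 1 out), Cldn5 from -0.01 (FBS/LIF replicate 2 out) to 0.14, and Cldn9 from -1.08 to 0.09 (FBS/LIF replicate 1 out). For F/A over FBS/LIF, Cldn3 ranged from -0.06 (FBS/LIF replicate 1 out) to 0.36. The cause was not tested. Over all genes VitC/LIF over FBS/LIF had 108 calls in edgeR, 430 in DESeq2, 263 without a filter, 243 on unique fragments and 62 with limma on log2(FPKM + 0.1). In F/A over L-Pro/LIF limma called 4 junction partners lower where edgeR called 7, and 5 epithelial genes lower where edgeR called 8.

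The labels do not say that a replicate number marks a shared batch or day. Same-numbered libraries deviated together with correlations of -0.01 to 0.62 (median 0.37) over pairs of media, the replicate 2 libraries share longer effective lengths in all 5 media, and the block lowered the biological coefficient of variation from 0.238 to 0.189. With the replicate block the counts were 5, 0, 7, 4, 5 and 3 in the order above, the change being Cldn1 in F/A over FBS/LIF (log2 fold change 1.08, adjusted p = 0.0669). In the single libraries the counts past 2-fold stayed within 1.5 times under total count scaling and no minimum, and the alternative from the authors' normalized table could not be run for L-proline, whose column header names 2 samples. With 2 libraries per medium and 17 or fewer counts of Cldn1 in FBS/LIF, VitC/LIF and 2i/LIF, and 3 to 17 of Cldn9 in several libraries, changes of these members are the least precise.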
